A study of Mus musculus with 4 samples.

Results

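The subject here is a pair of microRNA (miRNA) clusters of the mouse genome: Mir99b, Mirlet7e and Mir125a on chromosome 17, and their paralogues Mir99a, Mirlet7c-1 and Mir125b-2 on chromosome 16. The 6 hairpins were taken by gene symbol from the GENCODE M21 annotation, out of 2022 hairpins in the counts table. All 6 had at least 100 counts over any pair of libraries compared and entered every comparison. They were measured in small RNA from RAW264.7, a mouse macrophage-like cell line, and from the extracellular vesicles (EVs) that these cells release. There were 4 libraries, 1 for each of cells and EVs under each of 2 short hairpin RNAs: a non-silencing control (shNS) and a hairpin against Dis3l2 (shDis3l2). All 4 came from cultures kept in 1 μg/mL doxycycline for 3 days and then for another 24 h in medium with EV-depleted serum, from which the EVs were collected. Each EV preparation was pooled from several flasks, and whether a line was 1 clone is not stated.

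A miRNA cluster is transcribed as a single long primary transcript, from which Drosha cuts each hairpin and Dicer then cuts the mature miRNA, so that neighbours share transcription but are processed separately. The miR-99/miR-100, let-7 and miR-125 hairpins lie side by side in this order in many animals. The let-7 family restrains growth and proliferation genes such as those of RAS and HMGA2. miR-99 family members repress Mtor and Igf1r, and miR-125 family members are known in macrophages for their effects on TNF and NF-κB signalling. Dis3l2 is an exonuclease that degrades RNAs with uridine tails, among them let-7 precursors bound by Lin28.

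The mature 5p miRNAs are shown because the clusters pair up by their seeds (bases 2 to 8, in capitals), which set most of target choice, while the bases after the seed differ. They are taken from RefSeq (GRCm38.p6), in which mature entries were found for all 6 members. They are written 5′ to 3′ with their positions on the plus strand.
miR-99b-5p, chr17:17830194-17830215: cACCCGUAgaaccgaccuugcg
miR-99a-5p, chr16:77598940-77598961: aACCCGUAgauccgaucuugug
let-7e-5p, chr17:17830366-17830387: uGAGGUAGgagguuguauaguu
let-7c-5p, chr16:77599672-77599693: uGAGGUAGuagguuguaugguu
miR-125a-5p, chr17:17830817-17830840: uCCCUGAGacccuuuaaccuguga
miR-125b-5p, chr16:77646279-77646300: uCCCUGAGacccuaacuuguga
Each pair shares its whole seed. Counted from the 5′ end, miR-99b and miR-99a are identical at 18 of 22 positions and differ by C1A, A11U, C16U and C21U. let-7e and let-7c are identical at 20 of 22 positions and differ by G9U and A19G. miR-125a has 24 bases and miR-125b 22, of which the first 13 are the same.

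The chromosome 17 cluster is compact. Its hairpins lie on the plus strand of GRCm38 at chr17:17830188-17830257 (Mir99b), chr17:17830352-17830444 (Mirlet7e) and chr17:17830812-17830879 (Mir125a), a span of 692 nt with gaps of 94 and 367 nt, in introns of Spaca6, a sperm acrosome membrane gene. The transcript Spaca6-203 also has an exon over 47 of the 68 nt of the Mir125a hairpin, the 5p arm included. The chromosome 16 cluster is spread over 47408 nt, also on the plus strand and in introns of the noncoding gene Mir99ahg. Mir99a (chr16:77598936-77599000) and Mirlet7c-1 (chr16:77599657-77599750) are 656 nt apart there, and Mir125b-2 (chr16:77646273-77646343) lies 46522 nt further on. Gm11146 runs antisense to Mir99a and Mirlet7c-1, an exon of C130023A14Rik-201 covers part of Mir125b-2, and Gm25927, antisense to Mirlet7e, was at 0 in all 4 libraries.

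Libraries held 17612856 to 19741041 counts. On miRNA hairpins fell 68.3% of them in shNS cells and 61.2% in shDis3l2 cells, against 19.1% in shNS EVs and 10.5% in shDis3l2 EVs, which is 13480443 counts at the most and 1854287 at the fewest. Counts on the Dis3l2 gene were higher, not lower, with the label shDis3l2 in cells, at 13232 against 41 with shNS. In EVs they were 1713 with shNS and 1894 with shDis3l2. Whether the reads came from Dis3l2 transcripts or from the expressed short hairpin RNA was not tested. The direction of every label comparison below is therefore that of libraries as labelled. Levels of miRNAs are given as counts per 1000000 miRNA counts (CPM). Among markers of macrophages and myeloid cells, Mir142, Mir146, Mir155 and Mir21a summed to 177786, 132308, 171398 and 130917 CPM in shNS cells, shDis3l2 cells, shNS EVs and shDis3l2 EVs. The hairpin feature of Mir223, the other marker of that list, was at 0 in all 4, but it lies wholly inside an exon of F630028O10Rik, which had 152897, 28416, 19675 and 8742 counts, so the 0 does not show that miR-223 was absent. With 1 library per group there is no spread between samples: the intervals given are 95% exact (Clopper-Pearson) intervals of the ratio of counts and cover counting error only. Fewer cells that make a miRNA and less of it per cell cannot be told apart in such libraries.

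All 6 hairpins were abundant, and Mir125b-2 was the most abundant member in every library. Levels follow in the order cells labelled shNS, cells labelled shDis3l2, EVs labelled shNS and EVs labelled shDis3l2. Mir99b had 6438, 2086, 4985 and 2698 CPM, from 86785, 23513, 17335 and 5003 counts. It was highest in the shNS cell library and lowest in the shDis3l2 cell library. Mirlet7e had 7894, 2602, 2209 and 1065 CPM, from 106411, 29338, 7683 and 1974 counts. Mir125a had 12431, 3731, 4361 and 1972 CPM, from 167582, 42061, 15164 and 3657 counts. For these last members, too, the shNS cell library stood highest, and the shDis3l2 EV library was the lowest.

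On chromosome 16 the order was another one. Mir99a had 2758, 3608, 8347 and 7776 CPM, from 37184, 40673, 29028 and 14419 counts, so that both EV libraries stood above both cell libraries. Mirlet7c-1 was the least abundant member in cells and in the shNS EV library, with 522, 1161, 1306 and 2358 CPM from 7036, 13092, 4542 and 4373 counts. Mir125b-2 had 46715, 65430, 40877 and 45502 CPM, from 629738, 737616, 142147 and 84374 counts, and was between the 4th and the 8th most abundant of all hairpins. At counts this high the counting intervals are narrow, and those of neighbouring levels overlapped for 0 of 18 neighbours in the order of a member's 4 levels. The same was not counted for other hairpins, and the spread between cultures is not known.

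**Figure D1:**
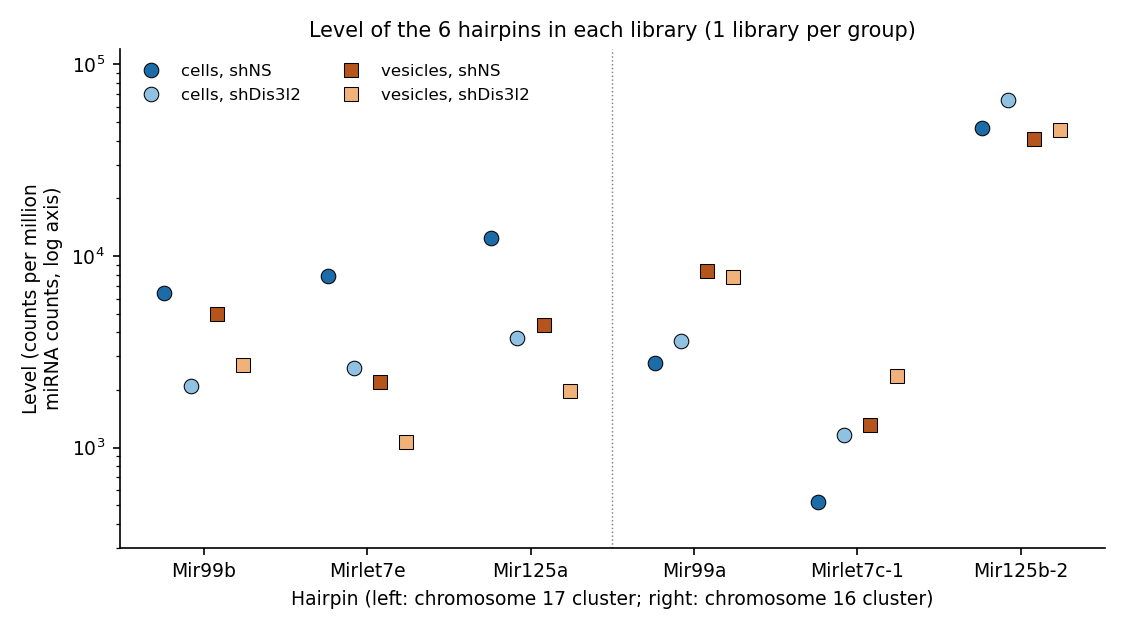
Level of each of the 6 hairpins in the 4 libraries, in CPM on a log axis, 1 point per library; no error between samples can be drawn with 1 library per group. The 3 chromosome 17 hairpins are highest in the cell library labelled shNS, Mir99a and Mirlet7c-1 are highest in the EV libraries (in CPM, though not scaled to all features), and Mir125b-2 stays between 40877 and 65430.

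In cells, the 3 hairpins of the chromosome 17 cluster were 3.03- to 3.33-fold lower in CPM in the library labelled shDis3l2 than in that labelled shNS. The chromosome 16 hairpins were higher. These directions were the same in each of 10 settings, of which those of the count minimum cannot move a member's ratio. The log2 ratio was -1.63 (interval -1.65 to -1.61) for Mir99b, -1.60 (-1.62 to -1.58) for Mirlet7e and -1.74 (-1.75 to -1.72) for Mir125a. Hairpins are called apart here from a 2-fold ratio upward, provided that the interval leaves out 1. All 3 were apart, against 9.22% of the 206 measured hairpins that were lower. They were the 6th (Mir125a), 7th (Mir99b) and 8th (Mirlet7e) lowest of the 206, whose median was 0.03. Mirlet7c-1 was 2.22-fold higher, with a log2 ratio of 1.15 (1.11 to 1.20), and was the single member among the 7.28% of hairpins apart upward; scaled to all features it stood at 0.996, just short of 2-fold. Mir125b-2 stood at 0.49 (0.48 to 0.49) and Mir99a at 0.39 (0.37 to 0.41), both short of 2-fold.

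Summed over its hairpins, the chromosome 17 cluster was 3.18-fold lower, at a log2 ratio of -1.67, and the chromosome 16 cluster 1.40-fold higher, at 0.49. The myeloid list was lower as well in this comparison, and most of that lay in Mir21a, a miRNA abundant in macrophages, which went from 797335 to 294722 counts, and in Mir142, from 1118135 to 788076. F630028O10Rik, which holds Mir223, was at a log2 ratio of -2.33 (-2.35 to -2.31) between labels in cells, scaled to all features. Mir126a, a marker of endothelium, went from 2979 to 13084 counts and carried most of an endothelial and mesenchymal list of 5 that summed to 284 and 1218 CPM, with Mir214 at 0. The part of these in the ratios of the clusters was not tested.

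In EVs the chromosome 17 cluster was again lower with the label shDis3l2, by 2.01-fold as a sum. Mir125a was 2.21-fold lower in the EV library labelled shDis3l2 (log2 -1.14, -1.20 to -1.09) and Mirlet7e 2.08-fold lower (-1.05, -1.13 to -0.98), the 7th and 12th lowest of 195 hairpins. Mir99b was 1.85-fold lower, at -0.89 (-0.93 to -0.84), and missed the 2-fold limit. It passed that limit with TMM factors (-1.12) and scaled to all features (-1.75), so that 3 of 6 members were apart downward in those scales. Of all 195 hairpins, 18 were apart downward with TMM factors and 50 scaled to all features, where the median was -0.64. In CPM, 2 of the 6 members were apart downward, beside 6.15% of hairpins, and 0 upward, beside 17.4%. The median over all 195 was 0.22. Mirlet7c-1 stood at 0.85 (0.79 to 0.91), Mir125b-2 at 0.15 (0.14 to 0.17) and Mir99a at -0.10 (-0.13 to -0.07); scaled by edgeR's TMM factors Mir125b-2 was at -0.08, and scaled to all features Mirlet7c-1 was at -0.0082 and Mir125b-2 at -0.71.

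In CPM, the label ratio of the chromosome 17 cluster was 0.66 higher in EVs than in cells on the log2 scale (0.63 to 0.69). That of the chromosome 16 cluster was 0.35 lower (difference -0.35). By member, the difference in CPM was 0.74 for Mir99b, 0.55 for Mirlet7e and 0.59 for Mir125a, against -0.49 for Mir99a, -0.30 for Mirlet7c-1 and -0.33 for Mir125b-2. The median over 255 hairpins was 0.16, with 69.0% of them below the chromosome 17 sum and 20.4% below the chromosome 16 sum. The size of these differences depends on the scale. With TMM factors the chromosome 17 sum was at -1.46 in cells and -1.25 in EVs. Scaled to all features it was at -1.83 and -1.87. The chromosome 16 sum was at 0.70 and -0.10 with TMM factors, and at 0.33 and -0.72 scaled to all features. All 4 libraries enter each difference once, so it has no replicate and was not tested beyond counting error.

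Over the 4 libraries together, the 3 chromosome 17 hairpins fell with the label shDis3l2 in the additive fit of compartment and label. This fit takes the effect of the label to be the same in cells and EVs and leaves 1 residual degree of freedom. That degree is the difference between the label ratios of EVs and cells, on the scale of the fit. With TMM factors, as in edgeR's fit, the ratios in cells and EVs were -1.42 and -1.12 for Mir99b. They were -1.39 and -1.29 for Mirlet7e and -1.53 and -1.38 for Mir125a. The p-values rest on such differences over the hairpins and not on spread between replicate samples. Whether the libraries came from separate cultures is not stated. By edgeR's quasi-likelihood test with Benjamini-Hochberg adjustment, the log2 change was -1.27 for Mir99b (adjusted p = 0.00874), -1.34 for Mirlet7e (adjusted p = 0.00594) and -1.45 for Mir125a (adjusted p = 0.00351), each lower under shDis3l2 in 2 of 2 compartments. These calls rest on the labels as given, and in cells Dis3l2 counts were higher with shDis3l2, from a source not tested. Were the labels of the cell libraries exchanged, the cell ratios would keep their size and change sign, opposite to those in EVs. Of all 255 hairpins, 5.10% were called lower and 3.92% higher. DESeq2, which called 4.31% lower and 4.71% higher, gave -1.29 (SE 0.31), -1.36 (SE 0.30) and -1.47 (SE 0.31) in the same order. Of the chromosome 16 hairpins 0 of 3 passed in edgeR: Mirlet7c-1 had 0.99 (adjusted p = 0.0980), Mir125b-2 0.31 (adjusted p = 0.868) and Mir99a 0.13 (adjusted p = 0.953). DESeq2 called Mirlet7c-1 at 0.97 (SE 0.31, adjusted p = 0.0167). At an unadjusted p under 0.05 edgeR had 39 of the 255.

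**Figure D2:**
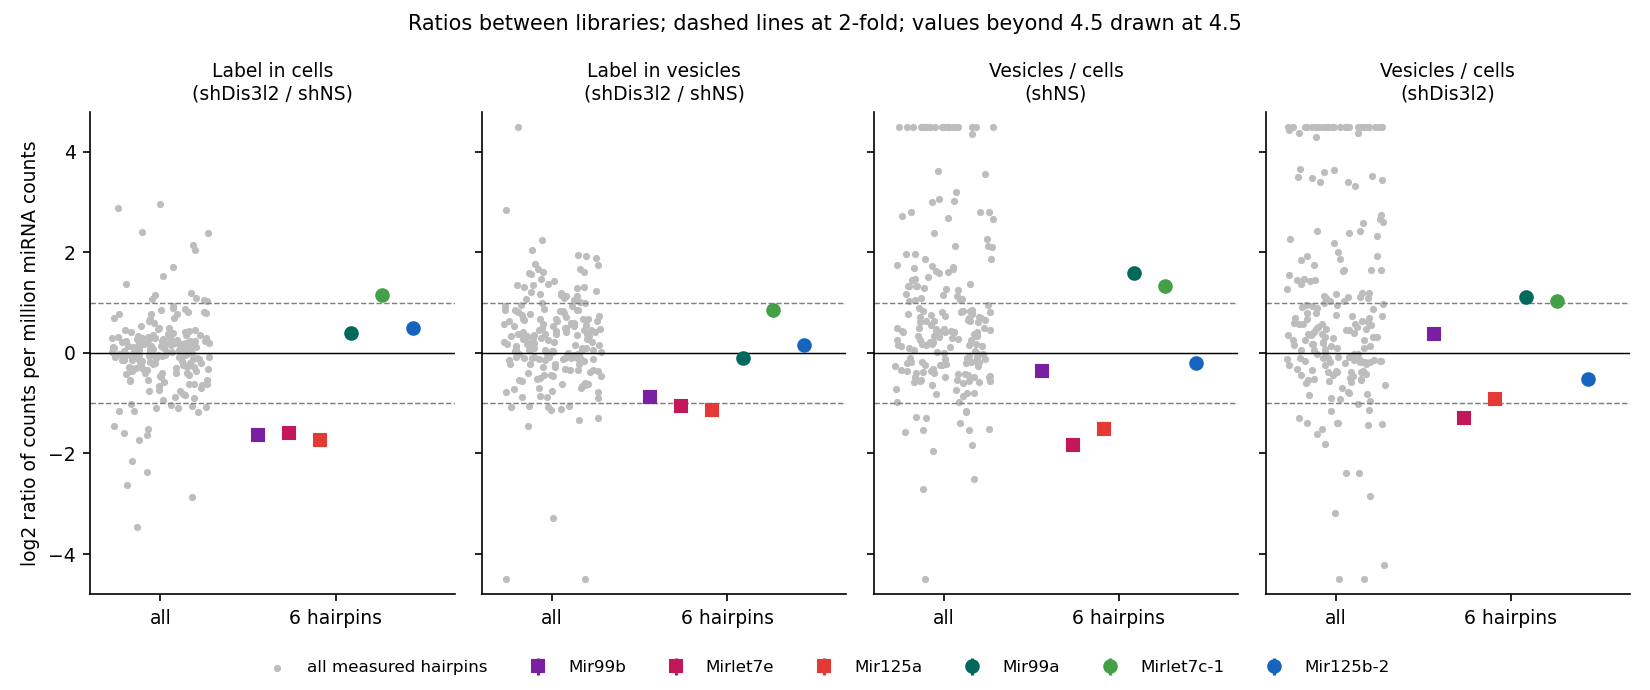
Log2 ratios of the members (points, with 95% counting intervals) in the 4 comparisons of libraries, over the ratios of all measured hairpins in grey, of which those beyond 4.5 are drawn at 4.5. In the label comparison in cells the chromosome 17 hairpins lie between -1.74 and -1.60 and the chromosome 16 hairpins between 0.39 and 1.15; scaled to all features, the vesicle to cell ratios of Mir99a and Mirlet7c-1 fall below 0.

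Between EVs and cells, the members of a cluster went apart from each other. With the label shNS, Mirlet7e was 3.57-fold lower in EVs than in cells (log2 -1.84) and Mir125a 2.85-fold lower (-1.51), the 5th and 9th lowest of 210 hairpins, while Mir99b was at -0.37. Mir99a was 3.03-fold higher in EVs (1.60) and Mirlet7c-1 2.50-fold higher (1.32), while Mir125b-2 was at -0.19. So 2 members were apart in each direction, beside 6.67% of hairpins lower and 33.8% higher, around a median of 0.44. With the label shDis3l2, Mirlet7e was again apart at -1.29 (2.44-fold lower, 16th lowest of 206), and Mir125a was 1.89-fold lower at -0.92. Mir99a was at 1.11 (2.16-fold higher), Mirlet7c-1 at 1.02 (2.03-fold higher), Mir99b at 0.37 and Mir125b-2 at -0.52. Here 1 member was apart downward, beside 9.22%, and 2 upward, beside 37.4%, around a median of 0.50. These comparisons share the libraries of the label comparisons.

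The scale between EVs and cells decides some of these directions. Scaled to all features, Mir99a was at -0.24 and Mirlet7c-1 at -0.51 in EVs against cells with shNS, and at -1.43 and -1.52 with shDis3l2. With TMM factors Mirlet7c-1 fell short of 2-fold, at 0.88 with shNS and 0.13 with shDis3l2, as did Mir99a with shDis3l2 (0.22), and Mir99b with shDis3l2 was at -0.52. With shDis3l2, Mir125a passed 2-fold downward under TMM (-1.81), under DESeq2's size factors (-1.62) and scaled to all features (-3.46), and Mir125b-2 did so too (-1.41, -1.23 and -3.06). With shNS, Mir99b (-2.21) and Mir125b-2 (-2.03) passed it when scaled to all features. With TMM factors the median over all hairpins moved from 0.44 to -0.01 for shNS and from 0.50 to -0.39 for shDis3l2, and the hairpins apart went from 71 higher and 14 lower to 55 and 29 for shNS, and from 77 and 19 to 53 and 63 for shDis3l2. Scaled to all features the medians were -1.40 and -2.04, with 29 higher and 135 lower for shNS and 33 and 145 for shDis3l2. A change of scale shifts all hairpins of a comparison by the same amount, so their order is the same by construction. For the label in cells, the split of 15 higher and 19 lower became 22 and 10 with TMM factors, whose median was 0.24, and 10 and 22 scaled to all features, whose median was -0.12. For the label in EVs, 34 higher and 12 lower became 23 and 18 with TMM factors (median -0.02) and 7 and 50 scaled to all features (median -0.64).

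In the additive fit, edgeR put Mirlet7e at -2.23 (adjusted p = 2.93e-08) and Mir125a at -1.88 (adjusted p = 3.01e-06) in EVs against cells, lower in 2 of 2 labels, beside 16.1% of hairpins called lower and 24.7% higher. The other members did not pass: Mir125b-2 was at -1.02 (adjusted p = 0.0516), Mir99b at -0.66 (adjusted p = 0.110), Mir99a at 0.69 (adjusted p = 0.107) and Mirlet7c-1 at 0.51 (adjusted p = 0.284). Without TMM factors edgeR called Mir99a at 1.35 (adjusted p = 0.00128), Mirlet7c-1 at 1.17 (adjusted p = 0.0156) and Mir125b-2 at -0.36 (adjusted p = 0.0484), and Mir99b was at 0.001. DESeq2, which called 20.0% of hairpins lower and 26.7% higher, called Mir99a at 0.71 (SE 0.31, adjusted p = 0.0488) and Mir125b-2 at -0.999 (SE 0.30, adjusted p = 0.00309).

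Among markers of other cells, the erythroid and serum, epithelial, endothelial and mesenchymal, and muscle lists summed higher in EVs than in cells under both labels. Mir451a and Mir144, of erythroid cells, had 4 and 5 counts in the shNS cell library and 376 and 477 in the shNS EV library, and 3 and 0 against 157 and 266 with the label shDis3l2. With Mir122, of liver and serum, the 3 measured members of that list summed to 10.5 and 13.4 CPM in cells and to 281 and 316 CPM in EVs. The endothelial and mesenchymal list summed to 284 and 1218 CPM in cells and 1566 and 2400 CPM in EVs, the epithelial list of 7 (Mir429 at 0) to 121 and 203 CPM in cells and 310 and 377 CPM in EVs, and the muscle list, with 4 of 5 at 0, to at most 18.3 CPM. The neuronal list, nearly all Mir128-1, was lower in EVs with shNS (1935 CPM in cells, 1730 in EVs) and higher with shDis3l2 (2062 and 2219), with Mir124a-2 and Mir124a-3 at 0. Their part in the ratios of the clusters was not tested.

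Set against each other within a library, where no scale between libraries enters, the clusters differed more in their shares than in their sum. Together they took 7.68% and 7.86% of miRNA counts in cells (shNS, then shDis3l2), and 6.21% and 6.14% in EVs. Of this sum, the chromosome 17 cluster made up 34.9% in the shNS cell library (exact binomial interval 34.8 to 34.96) and 10.7% in the shDis3l2 cell library (10.6 to 10.8). In EVs it made up 18.6% (18.4 to 18.8) and 9.34% (9.18 to 9.52). The chromosome 16 cluster thus had 1.87-fold and 8.34-fold the counts of the chromosome 17 cluster in cells and 4.37-fold and 9.70-fold in EVs. With Mirlet7c-2 and Mir125b-1, which carry the same mature 5p sequences, added to the chromosome 16 side, the shares became 21.5%, 6.07%, 10.1% and 4.89%, in the same order of libraries. Mir125b-1 was at 0 in every library, so this change came from Mirlet7c-2 alone. It does not show how reads of miR-125b-5p were divided.

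**Figure D3:**
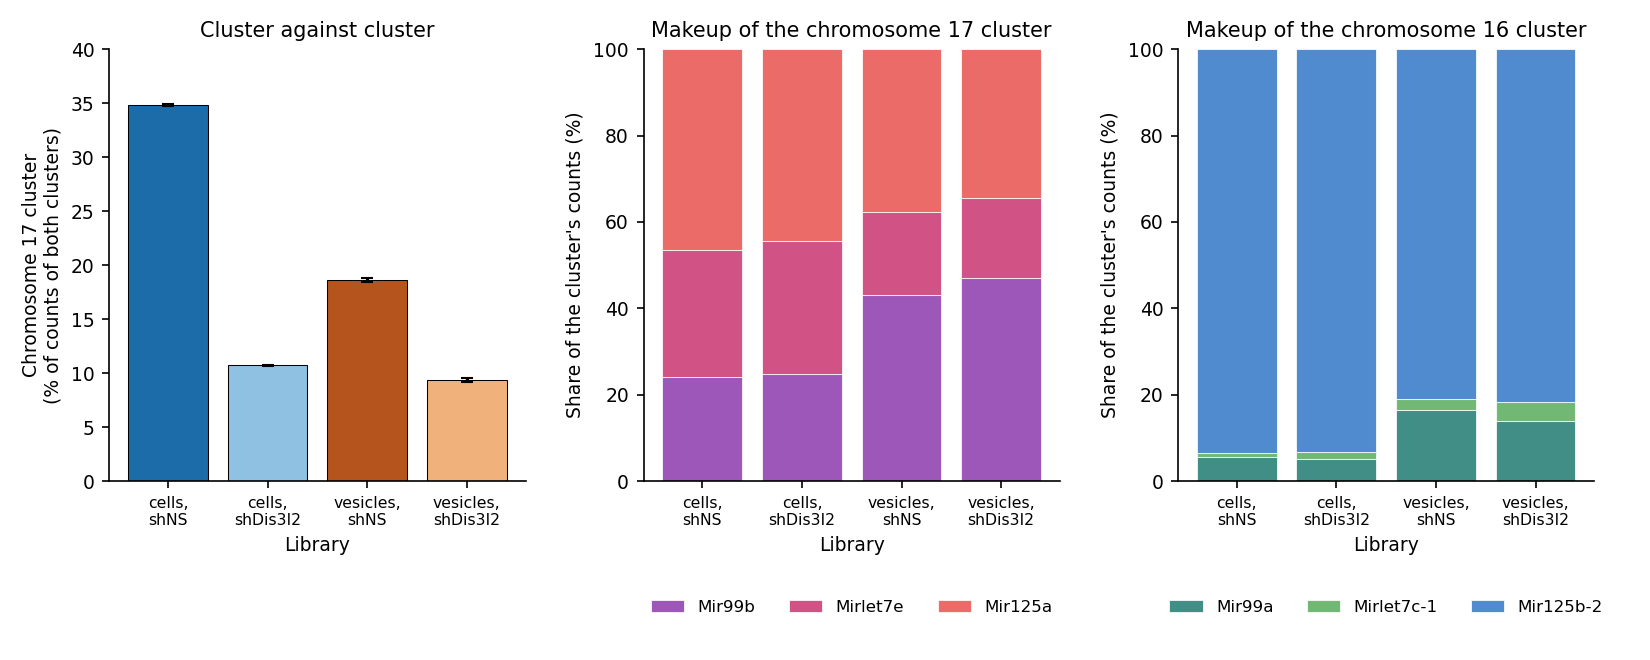
Left, share of the chromosome 17 cluster in the counts of both clusters, in percent per library, with 95% binomial intervals as error bars; middle and right, share of each hairpin in its cluster. The left bars read 34.9, 10.7, 18.6 and 9.34%, and in the other panels the EV bars differ from the cell bars more than the labels differ within cells or within EVs, except for Mirlet7c-1, whose share differs as much between the EV bars.

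Within a cluster, the makeup followed the compartment more than the label. Mir99b made up 24.1% and 24.8% of the chromosome 17 cluster in cells and 43.1% and 47.05% in EVs. Mirlet7e made up 29.5% and 30.9% in cells and 19.1% and 18.6% in EVs, and Mir125a 46.5% and 44.3% against 37.7% and 34.4%. The log2 ratio of Mir99b to Mir125a changed by 1.14 (1.11 to 1.18) from cells to EVs with shNS and by 1.29 (1.23 to 1.36) with shDis3l2, against 0.11 and 0.26 between labels in cells and in EVs. On chromosome 16 Mir125b-2 made up 93.4% and 93.2% in cells and 80.9% and 81.8% in EVs, and Mir99a 5.52% and 5.14% in cells and 16.5% and 14.0% in EVs. Mirlet7c-1 made up 1.04%, 1.65%, 2.58% and 4.24% across the libraries. The ratio of Mir99a to Mir125b-2 changed by 1.79 and 1.63 from cells to EVs, and by -0.10 and -0.26 between labels. In both clusters, then, the miR-99 hairpin held a larger share in EVs and the miR-125 hairpin a smaller one.

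Each pair of the same seed shifted toward chromosome 16. The log2 ratio of Mir99b to Mir99a was 1.22 in the shNS cell library and -0.79, -0.74 and -1.53 in the shDis3l2 cell, shNS EV and shDis3l2 EV libraries. Mir99b thus had more counts in the first, and Mir99a in the others. Mirlet7e exceeded Mirlet7c-1 by 3.92, 1.16 and 0.76 and was under it only in the shDis3l2 EV library, at -1.15. This holds for the feature Mirlet7c-1 alone. Together with Mirlet7c-2, which carries the same mature 5p sequence, it had 654222, 690501, 184821 and 107822 counts. Mirlet7e, with 106411, 29338, 7683 and 1974, was under that sum in all 4. Mir125a was under Mir125b-2 in all 4, at -1.91, -4.13, -3.23 and -4.53. Between labels in cells these ratios changed by -2.01, -2.75 and -2.22, and in EVs by -0.78, -1.91 and -1.30. From cells to EVs they changed by -1.97, -3.16 and -1.32 with shNS and by -0.74, -2.31 and -0.40 with shDis3l2.

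**Figure D4:**
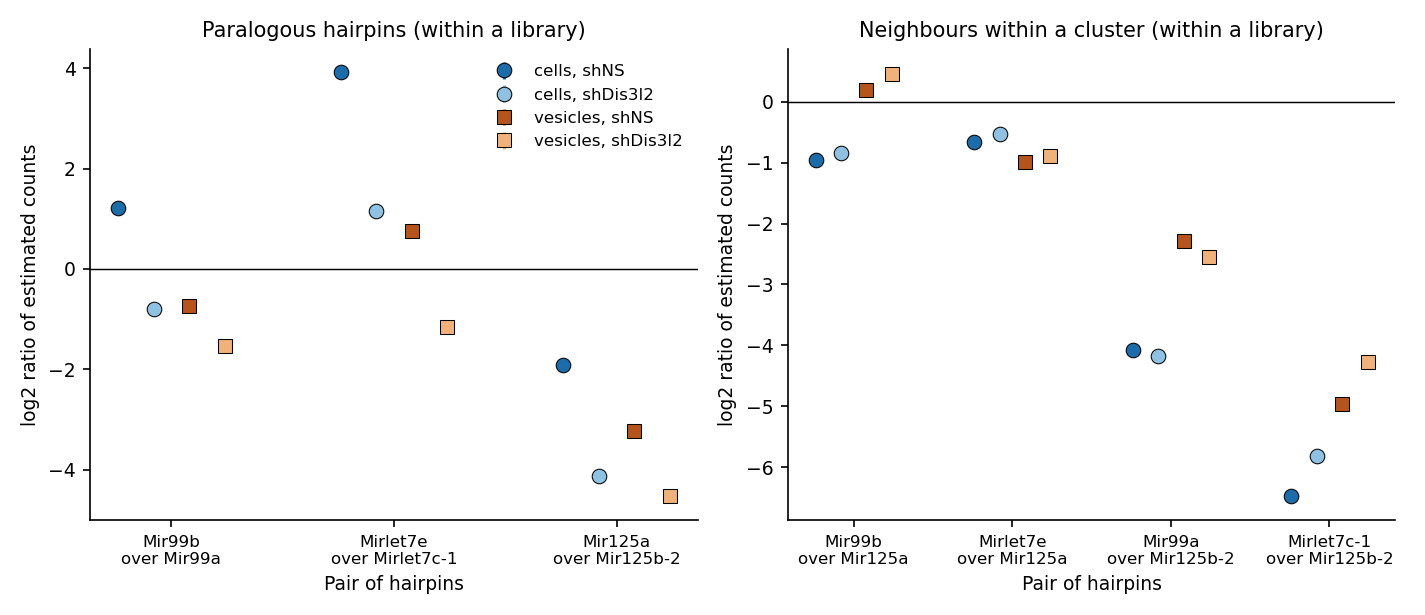
Log2 ratio of the chromosome 17 hairpin to its chromosome 16 paralogue within each library, for the miR-99, let-7 and miR-125 pairs; above 0 the chromosome 17 hairpin has more counts. Each pair is highest in the cell library labelled shNS, at 1.22, 3.92 and -1.91, and lowest in the EV library labelled shDis3l2, at -1.53, -1.15 and -4.53. The let-7 pair leaves out Mirlet7c-2, which carries the same mature 5p sequence as Mirlet7c-1.

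How reads were divided between copies limits the values of Mirlet7c-1 and Mir125b-2. In the GENCODE transcripts, the mature 5p sequences of miR-99b, let-7e and miR-99a each occur in 1 hairpin, and that of miR-125a occurs in Mir125a and in Spaca6-203. let-7c-5p occurs in Mirlet7c-1 and in Mirlet7c-2 (chr15:85706603-85706697), and miR-125b-5p in Mir125b-2 and Mir125b-1. Beyond hairpins, let-7c-5p occurs in Lncppara-201 and Lncppara-202, which together had 7002, 7488, 680 and 478 counts, next to 7036, 13092, 4542 and 4373 for Mirlet7c-1, and miR-125b-5p occurs in Gm28119-201, with 8, 12, 0 and 4 counts. The copies of a pair of hairpins differ in their 3p arms, shown here because those letters tell such hairpins apart.
let-7c-1-3p, Mirlet7c-1: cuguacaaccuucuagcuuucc
let-7c-2-3p, Mirlet7c-2: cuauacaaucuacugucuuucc
miR-125b-2-3p, Mir125b-2: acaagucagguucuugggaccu
miR-125b-1-3p, Mir125b-1: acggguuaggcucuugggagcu
Mirlet7c-2 had 647186, 677409, 180279 and 103449 counts, 92.0- to 23.7-fold more than Mirlet7c-1. Summed over both let-7c hairpins the label ratio was 0.34 in cells and 0.13 in EVs, and the EV to cell ratio was 0.13 with shNS and -0.08 with shDis3l2, none of them 2-fold. The 2-fold calls of Mirlet7c-1 are thus those of its own feature.

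The paralogous cluster on chromosome 9, Mir100, Mirlet7a-2 and Mir125b-1 (chr9:41531425-41582002), had few counts. Mir100 had 5, 1, 4 and 5 counts and Mirlet7a-2 had 4, 4, 7 and 0. The 5p sequence of miR-100 differs from that of miR-99a by the single substitution U16A and occurs in no other hairpin.
miR-100-5p, chr9:41531437-41531458: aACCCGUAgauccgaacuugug
Mir125b-1 was at 0 in all 4, but it lies wholly inside an exon of Gm28119-201, which had 8, 12, 0 and 4 counts. Its mature 5p sequence also cannot be told apart from that of Mir125b-2, so the 0 sets no bound on its level. The gene spanning that cluster, 3110039I08Rik, had 38, 31, 88 and 162 counts.

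The host genes had few counts in these small RNA libraries. Spaca6 had 97, 38, 27 and 21 counts over 16 transcripts; scaled to all features its log2 ratio between labels in cells was -1.24 (-1.83 to -0.70), beside 4.59% of 3073 genes other than miRNAs that were apart downward. Of the counts of Spaca6, 48, 10, 17 and 4 came from Spaca6-203, which shares the letters of the Mir125a hairpin shown in capitals below.
Mir125a hairpin, chr17:17830812-17830879: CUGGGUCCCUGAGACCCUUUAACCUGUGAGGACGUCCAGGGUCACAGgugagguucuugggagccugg
Without Spaca6-203, the counts were 49 and 28 in cells and the log2 ratio -0.70 (-1.43 to -0.01), under the minimum of 100 counts for a call. Mir99ahg had 56, 52, 24 and 57 counts, with a label ratio in cells of -0.01 (-0.58 to 0.56).

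For the other let-7 hairpins the ratios were small. Of 10 fixed for this list 9 were measured, and 0 of 9 were apart in any of the 4 comparisons. Over all measured hairpins, 7.28% were higher and 9.22% lower between labels in cells, 17.4% and 6.15% between labels in EVs, 33.8% and 6.67% between EVs and cells with shNS, and 37.4% and 9.22% with shDis3l2, and at the shares of the label comparisons a count of 0 among 9 says little. In cells their label ratios ran from -0.06 to 0.32 with a median of 0.11, next to -1.60 for Mirlet7e, and in EVs from -0.11 to 0.22 with a median of 0.06. From cells to EVs they ran from -0.58 to 0.50 with shNS and from -0.70 to 0.48 with shDis3l2. Mirlet7i, among the most abundant of them, had a label ratio of 0.22 in cells, from 800050 and 777931 counts.

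Genes of miRNA processing and of let-7 precursor control were read mostly in EVs, and are scaled to all features. In cells 9 of the 21 with a feature were measured. Of these, 1 was apart upward (Dis3l2, whose source of reads was not tested) and 0 downward, beside 14.4% and 4.59% of genes. The median was -0.18, against 0.13 over all 3073 genes. Dicer1, which cuts the hairpins, had 84 and 68 counts, and Ago2, which loads the mature miRNA, 179 and 114. In EVs 17 were measured, with 1 higher (Ago1, 4 and 111 counts) and 0 lower, beside 10.6% and 1.86% of 8098 genes. Drosha had 78 and 113 counts there, and Lin28b, which binds let-7 precursors, 62 and 63. From cells to EVs 11 of 12 were higher with shNS and 13 of 14 with shDis3l2, beside 76.4% and 78.6% of genes, and the 1 that was lower, with shDis3l2, was Dis3l2.

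Likeness to each summed cluster was measured as the root mean square distance of centred log2 CPM over the 4 libraries, among 255 hairpins with at least 100 counts. Nearest to the chromosome 17 cluster were Mir34a, a p53-induced miRNA, at 0.26, Mir1968 at 0.28, Mir338 at 0.34, Mir322 at 0.41 and Mir582 at 0.43, against a median of 1.17. Mir34a had 11184, 2165, 3860 and 2127 CPM, and like the cluster was highest in the shNS cell library. Its own members lay at 0.17 (Mir125a), 0.34 (Mirlet7e) and 0.44 (Mir99b). Nearest to the chromosome 16 cluster were Mir93 at 0.09, Mir155 at 0.10, Mirlet7c-2 at 0.10, Mir16-1 at 0.11 and Mir194-1 at 0.13, against a median of 0.73. This is the profile of Mir125b-2 (0.10), which makes up most of that sum, and not of Mir99a (0.76) or Mirlet7c-1 (0.75).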

How the data were processed

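RNA of RAW264.7 cells and of their EVs was made into libraries with a QIAseq kit for miRNAs, per the labels' protocols. The authors deposited estimated counts per transcript. Per the submitters' processing notes, cutadapt, Salmon and Novoalign were used, with builds GRCm38 and mm10 named; versions, and any collapsing of reads by molecular tag, are not stated there. A hairpin's value holds both arms.

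Counts were rounded. Each log2 ratio used CPM of the miRNA total, a pseudocount of 0.5 and a minimum of 100 counts over the pair of libraries. Hairpins with at least 100 counts over 4 libraries entered edgeR 4.0.16 (quasi-likelihood, TMM factors) and DESeq2 1.42.0 in R 4.3.3. Of these fits, only edgeR's label effect was tried on simulated counts, which held no compartment effect. Its compartment effect and DESeq2 were not tried in this way. Intervals came from scipy 1.17.1. Single comparisons carry no p-value. Mature sequences are RefSeq's. Alternatives covered scaling, pseudocount, count minimum, copies and hosts. The genes named are the members, the chromosome 9 cluster, other copies, hosts, the lists' members and the 5 hairpins nearest to each cluster; of the lists, those named were chosen after their values were seen, as was F630028O10Rik. The members and lists were chosen with earlier results of these data known.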

Additional observations from a re-analysis of the deposited data

Results flagged for a closer look

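In 3 cases the 2 libraries of each arm went opposite ways under the same contrast. With 1 library per group these differences were not tested. The EV to cell log2 ratio of Mir99b was -0.369 with the label shNS and 0.3715 with shDis3l2, and the second became -0.5158 with TMM factors. The label ratio of Mir99a was 0.3873 in cells and -0.1023 in EVs. The EV to cell ratio of the summed chromosome 16 cluster was 0.0154 with shNS and -0.3354 with shDis3l2, and the first became -0.4274 with TMM factors.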

How the results depend on the processing

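The label ratio of the summed chromosome 17 cluster in cells ran from -1.83 to -1.46 over 10 settings, and those of its 3 members from -1.89 to -1.39, all at least 2-fold lower. In EVs the summed ratio ran from -1.87 to -1.01. The edgeR label calls of these 3 held without TMM factors (adjusted p 0.0400, 0.0381 and 0.0133 for Mir99b, Mirlet7e and Mir125a), without a filter on low counts (0.0316, 0.0197 and 0.00696) and in DESeq2 (0.000906, 0.000318 and 9.719e-05). Other ratios depended on the scale. With TMM factors the label ratio in EVs was -0.0806 for Mir125b-2 and -0.0964 for the chromosome 16 sum, the EV to cell ratio was -0.4274 for that sum with shNS, and with shDis3l2 it was -0.5158 for Mir99b, -1.4412 for the chromosome 17 sum and -1.2227 for the chromosome 16 sum. With DESeq2 size factors the EV to cell ratio was -0.5607 for the chromosome 16 sum with shNS, and with shDis3l2 it was -0.3332 for Mir99b, -1.2586 for the chromosome 17 sum and -1.0401 for the chromosome 16 sum. Scaled to all features, the label ratio in EVs was -0.008171 for Mirlet7c-1, -0.706 for Mir125b-2 and -0.7218 for the chromosome 16 sum. The EV to cell ratio was then -0.2392 for Mir99a, -0.5133 for Mirlet7c-1 and -1.8214 for the chromosome 16 sum with shNS, and -2.1681 for Mir99b, -1.4317 for Mir99a, -1.5175 for Mirlet7c-1, -3.0935 for the chromosome 17 sum and -2.875 for the chromosome 16 sum with shDis3l2. In that scaling 164 of 210 hairpins were apart between EVs and cells with shNS, and 178 of 206 with shDis3l2. With shDis3l2 all 6 members were apart downward, where 3 were apart in CPM. Beside them, 145 of the 206 hairpins were lower, around a median of -2.04. With both let-7c hairpins summed, the EV to cell ratio with shDis3l2 was -0.075. The shares of the chromosome 17 cluster with copies added were 21.5%, 6.07%, 10.1% and 4.89%.

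Counts of hairpins apart (34, 46, 85 and 96 for the label in cells and in EVs and for EVs against cells with shNS and shDis3l2) became 79, 110, 196 and 220 at a minimum of 10 counts. At a minimum of 1000 counts the last 3 were 20, 45 and 49, and with host transcripts added 88, 145 and 156; these settings test other numbers of hairpins. edgeR called 23 hairpins for the label, 12 without TMM factors and 15 without a filter. The compartment effect of Mir99b was 0.001 without TMM factors. Why the scales differ was not tested. No paired analysis was possible because the groups share fewer than 2 replicate numbers; the additive fit has compartment and label as terms and no replicate block. The EV library labelled shDis3l2, with 1854287 miRNA counts, sets the widest intervals.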
